A study of Arabidopsis thaliana with 18 samples.

Results

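The genes described here had a lower transcript signal when phytochrome B was missing, both in a wild-type background and in plants that also lacked JAZ10. They were chosen by a rule on measured values. Signals were put on the scale log2(value + 1), and each gene was represented by its brightest probe set, a group of short array probes, among those paired with a single gene and reaching a signal of 50 in at least 1 array. The mean of a genotype was the average of its mock and MeJA group means. A gene was taken when phyb minus Col and jaz10phyb minus jaz10 were both -0.5 or lower and the response of Col to MeJA lay within 0.8 of zero in either direction. Of 5689 genes tested, 31 passed both differences, 8 of these exceeded the limit on the Col response, and 7 were left out by name because they belong to groups described elsewhere. This left 16 genes. Because the rule used these differences, they are given below as a description with no test. With the sign turned, the same limits took 15 genes.

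Whole plants of Arabidopsis thaliana, 4 weeks old and grown at 22 °C in days of 8 h light and 16 h dark, were measured on 18 single-colour arrays. The genotypes were wild-type Col-0 (Col), the phyb-9 mutant of the phytochrome B gene (phyb), a jaz10 mutant whose allele is not given in the sources used here, and the double mutant of jaz10 and phyb-9 (jaz10phyb). Plants received a spray of 250 µM methyl jasmonate (MeJA) or a water mock, labelled Control, and were collected 3 h later. Each sample pooled at least 4 plants, and the phyb groups had 3 arrays while all others had 2. Nothing in the labels says that pools came from separate sowings, so the p-values below cover the spread between pools, which may be technical.

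Phytochrome B is the main red-light receptor of light-grown plants. In its active form it enters the nucleus and removes or inhibits the PIF transcription factors, which drive elongation growth in shade, so plants without it look permanently shaded. JAZ proteins such as JAZ10 hold back jasmonate-responsive transcription until the hormone triggers their destruction. MeJA is a volatile form of that hormone, which is made after wounding and insect attack. Of the 16 genes, 3 have a symbol in the annotation used. CLE41 and CLE44 encode precursors of the same short signalling peptide, TDIF, which phloem cells release, and which keeps neighbouring cambium cells dividing and delays their maturation into xylem through the receptor PXY. NAXT1 encodes a nitrate efflux carrier of the plasma membrane, known from roots. The other 13 are protein-coding loci for which that annotation gives a locus tag but no name, so no role is stated for them. Names or roles given to them in other sources are not covered here.

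A treatment score, in which the average of 96 genes that MeJA lowered at least 2-fold in Col was subtracted from that of 205 genes it raised, went against the label in 2 phyb arrays. It was 1.09 in phyb Control 2, against -1.44 and -1.14 in the other mock phyb arrays, and -1.30 in phyb MeJA 3, against 1.15 and 0.521 in the other MeJA arrays of phyb. None of the 16 genes entered this score. Both groups are reported as labelled, with all arrays unless stated. The tests of MeJA responses and the counts of calls are also given without these 2 arrays, which leave the differences among Col, jaz10 and jaz10phyb as they are. PHYB and JAZ10 themselves had no named probe set and were not analysed here, so the genotype labels rest on the submitters. Of 67 tissue marker genes, 9 had a named probe set, and the one matched through the symbol FDH is formate dehydrogenase rather than the epidermal gene of that symbol. The leaf gene RCA, for Rubisco activase, had signals of 2827 to 3508, the root-rich PYK10 had 546 to 1655, and the root-hair gene EXPA7 had 4.8 to 6.9. PYK10 also differed with treatment, at 989.8 and 920.1 in mock Col plants and 1522 and 1578 after MeJA. Its range is therefore not read as root content. In whole plants, fewer cells of a type and less RNA per cell cannot be told apart.

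Both TDIF genes were lower without PHYB. CLE41 (AT3G24770) had signals of 89.3 and 122.5 in mock Col plants and 84.9 and 87.6 after MeJA, against 60.6, 48.9 and 44.7 in mock phyb plants and 43.7, 43.9 and 48.6 after MeJA. In jaz10 its signals were 93.5 and 101.1 after mock and 62.6 and 74.9 after MeJA, and in jaz10phyb they were 57.1 and 62.7, then 41.4 and 49.0. The phyb arrays lay below the Col arrays without overlap, while the highest jaz10phyb array just reached the lowest jaz10 array. The difference in CLE41 was -0.97 ± 0.11 on the log2 scale for phyb minus Col (SE from the fit over all genes, here and below), 48.9% lower, and -0.64 ± 0.12 for jaz10phyb minus jaz10, 36.0% lower.

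CLE44 (AT4G13195) stood close to the signal minimum of 50. Its signals were 38.0 and 40.8 in mock Col plants and 68.6 and 51.3 after MeJA, and between 27.5 and 34.7 in the 6 phyb arrays. In jaz10 they were 54.0 and 41.3, then 43.6 and 49.7 after MeJA, and in jaz10phyb between 28.9 and 35.8. Here the arrays overlapped in neither background. The difference was -0.65 ± 0.10 for phyb minus Col and -0.52 ± 0.11 for jaz10phyb minus jaz10. None of the 10 phyb and jaz10phyb arrays reached 50, so CLE44 entered the table through Col and jaz10 alone, and signal over background was not tested. Over the 18 arrays, deviations from the group means of CLE41 and CLE44 had a correlation of 0.0567, and 0.136 without the 2 doubtful arrays. The receptor PXY and the cambium gene WOX4 had no named probe set and were not analysed here. In the annotation 7 of the 16 genes overlap another gene, CLE44 with AT4G13190, AT4G22485 with AT4G22475, AT4G22520 with AT4G22530, AT4G12005 with AT4G12010, AT3G05730 with AT3G01735, AT2G25640 with AT2G25650 and AT1G03940 with AT1G04227. Whether their signals include transcripts of these neighbours was not tested.

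NAXT1 (AT3G45650) was lower without PHYB within each treatment, and its mean after MeJA was below that of mock plants in each genotype. Its signals were 71.2 and 63.1 in mock Col plants and 37.8 and 40.1 after MeJA, and 48.6, 27.6 and 46.1 in mock phyb plants and 34.2, 26.0 and 24.9 after MeJA. In jaz10 they were 66.3 and 60.1, then 39.6 and 44.3, and in jaz10phyb 40.2 and 37.0, then 28.4 and 25.4. Within each treatment the phyb arrays lay below the Col arrays and the jaz10phyb arrays below the jaz10 arrays, but with both treatments pooled they overlapped, since the mock arrays without PHYB reached the range of the MeJA arrays with it. The difference was -0.60 ± 0.14 for phyb minus Col and -0.66 ± 0.15 for jaz10phyb minus jaz10. The first became -0.43 without the 2 doubtful arrays, which would no longer meet the rule. No phyb or jaz10phyb array reached a signal of 50.

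A group of 3 members lay close together on chromosome 4. AT4G22485 and AT4G22490 are next to each other in the gene order of the TAIR10.1 assembly, and AT4G22520 follows after 6 further genes, none of which was among the genes tested. AT4G22485 had signals of 223.1 and 184.7 in mock Col plants, 148.4 and 128.8 after MeJA, 105.4, 115.6 and 66.2 in mock phyb plants and 79.8, 92.5 and 37.4 after MeJA. In jaz10 the signals were 176.8 and 230.4, then 169.2 and 130.8, and in jaz10phyb 101.6 and 99.1, then 86.6 and 70.8. All arrays without PHYB were below those with it in both backgrounds, with differences of -1.09 ± 0.23 and -0.96 ± 0.25.

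AT4G22520 was also separated in both backgrounds. Its signals lay between 63.3 and 79.0 in Col and between 58.7 and 92.4 in jaz10, against 16.9 to 40.6 in phyb and 27.2 to 44.4 in jaz10phyb. The differences were -1.19 ± 0.20 and -0.87 ± 0.22. AT4G22490 had 110.4 to 127.6 in Col against 62.8 to 111.6 in phyb, which overlapped, and 125.1 to 188.5 in jaz10 against 66.2 to 91.1 in jaz10phyb, which did not. Its differences were -0.52 ± 0.16 and -0.93 ± 0.17, and the first was -0.48 without the 2 doubtful arrays.

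These 3 loci also varied together inside groups. Over 18 arrays, deviations from the group means had correlations of 0.902 for AT4G22485 with AT4G22520, 0.791 for AT4G22485 with AT4G22490 and 0.793 for AT4G22490 with AT4G22520. The median over all 120 pairs of the 16 genes was 0.117. Without the 2 doubtful arrays the correlations of these pairs were 0.748, 0.443 and 0.533, and the median of all pairs was 0.0645. Some pairs on different chromosomes reached similar values, such as 0.780 for AT2G25640 with AT4G12005 over 18 arrays. Without the 2 arrays, AT3G05730 with AT4G22490 had 0.443. The points share array, sample pool and scaling, and whether probes of these loci match each other's transcripts was not tested. AT4G22530, which overlaps AT4G22520, has a probe set of its own, with a highest signal of 23.8.

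A neighbouring pair lay on chromosome 3, AT3G05727 and AT3G05730, with no protein-coding gene between them. AT3G05727 had signals of 50.1 to 78.6 in Col against 25.9 to 51.9 in phyb, and 50.4 to 62.2 in jaz10 against 29.9 to 40.0 in jaz10phyb, so that the groups overlapped in the first comparison and not in the second. Its differences were -0.68 ± 0.17 and -0.66 ± 0.18. AT3G05730 had 63.0 to 106.0 in Col against 48.0 to 73.7 in phyb, and 71.5 to 130.8 in jaz10 against 42.5 to 69.5 in jaz10phyb. Its differences were -0.53 ± 0.15 and -0.86 ± 0.16. The deviations of this pair had a correlation of 0.0544 and, without the 2 doubtful arrays, of 0.152. AT3G05727 had its highest correlation among the pairs examined with AT4G22485, 0.847, and 0.816 without the 2 arrays, although the loci lie on different chromosomes.

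Among the remaining loci, AT3G60520 and AT4G12005 were separated in both backgrounds. The 4 Col arrays of AT3G60520 had signals of 128.8 and 126.4 after mock and 125.7 and 121.1 after MeJA, whereas the 6 phyb arrays lay between 46.1 and 69.3. In jaz10 the signals were 129.1 and 142.1, then 103.5 and 108.4 after MeJA, against 83.8 and 61.5, then 54.0 and 69.5 in jaz10phyb. The differences were -1.12 ± 0.13, 53.9% lower, and -0.84 ± 0.14, 44.3% lower. AT4G12005 had 36.4 to 67.0 in Col against 18.3 to 31.6 in phyb, and 37.6 to 57.8 in jaz10 against 25.6 to 34.0 in jaz10phyb, with no overlap in either background. Its difference of -1.22 ± 0.14 was the lowest of the 16 for phyb minus Col, and it was -0.76 ± 0.15 for jaz10phyb minus jaz10. No phyb or jaz10phyb array of AT4G12005 reached a signal of 50, so the sizes of these differences are uncertain.

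AT2G40960 and AT1G03495 had the lowest differences in the jaz10 background, -1.24 ± 0.21 and -1.26 ± 0.21, against -0.98 ± 0.19 and -0.67 ± 0.19 for phyb minus Col. AT2G40960 had signals of 98.8 and 69.4 in mock Col plants and 59.8 and 47.2 after MeJA, against 56.4, 31.8 and 30.8, then 27.1, 25.3 and 34.7 in phyb. In jaz10 it had 115.0 and 82.5, then 52.3 and 47.6, against 44.4 and 30.6, then 18.7 and 27.1 in jaz10phyb. The phyb arrays overlapped the Col arrays and the jaz10phyb arrays did not overlap the jaz10 arrays. AT1G03495 had 36.1 to 53.6 in Col against 20.5 to 41.0 in phyb, and 45.5 to 78.3 in jaz10 against at most 29.7 in jaz10phyb, again with overlap in the first comparison alone.

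For phyb minus Col and jaz10phyb minus jaz10, the differences of the other 4 members were -0.64 and -0.94 in AT2G25640, -0.73 and -0.64 in AT1G03940, -0.64 and -0.61 in AT2G34620 and -0.59 and -0.54 in AT1G10657. In AT1G10657 the mock phyb array that stood against its label had a signal of 96.6, where the other mock phyb arrays had 45.5 and 45.1.

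**Figure D1:**
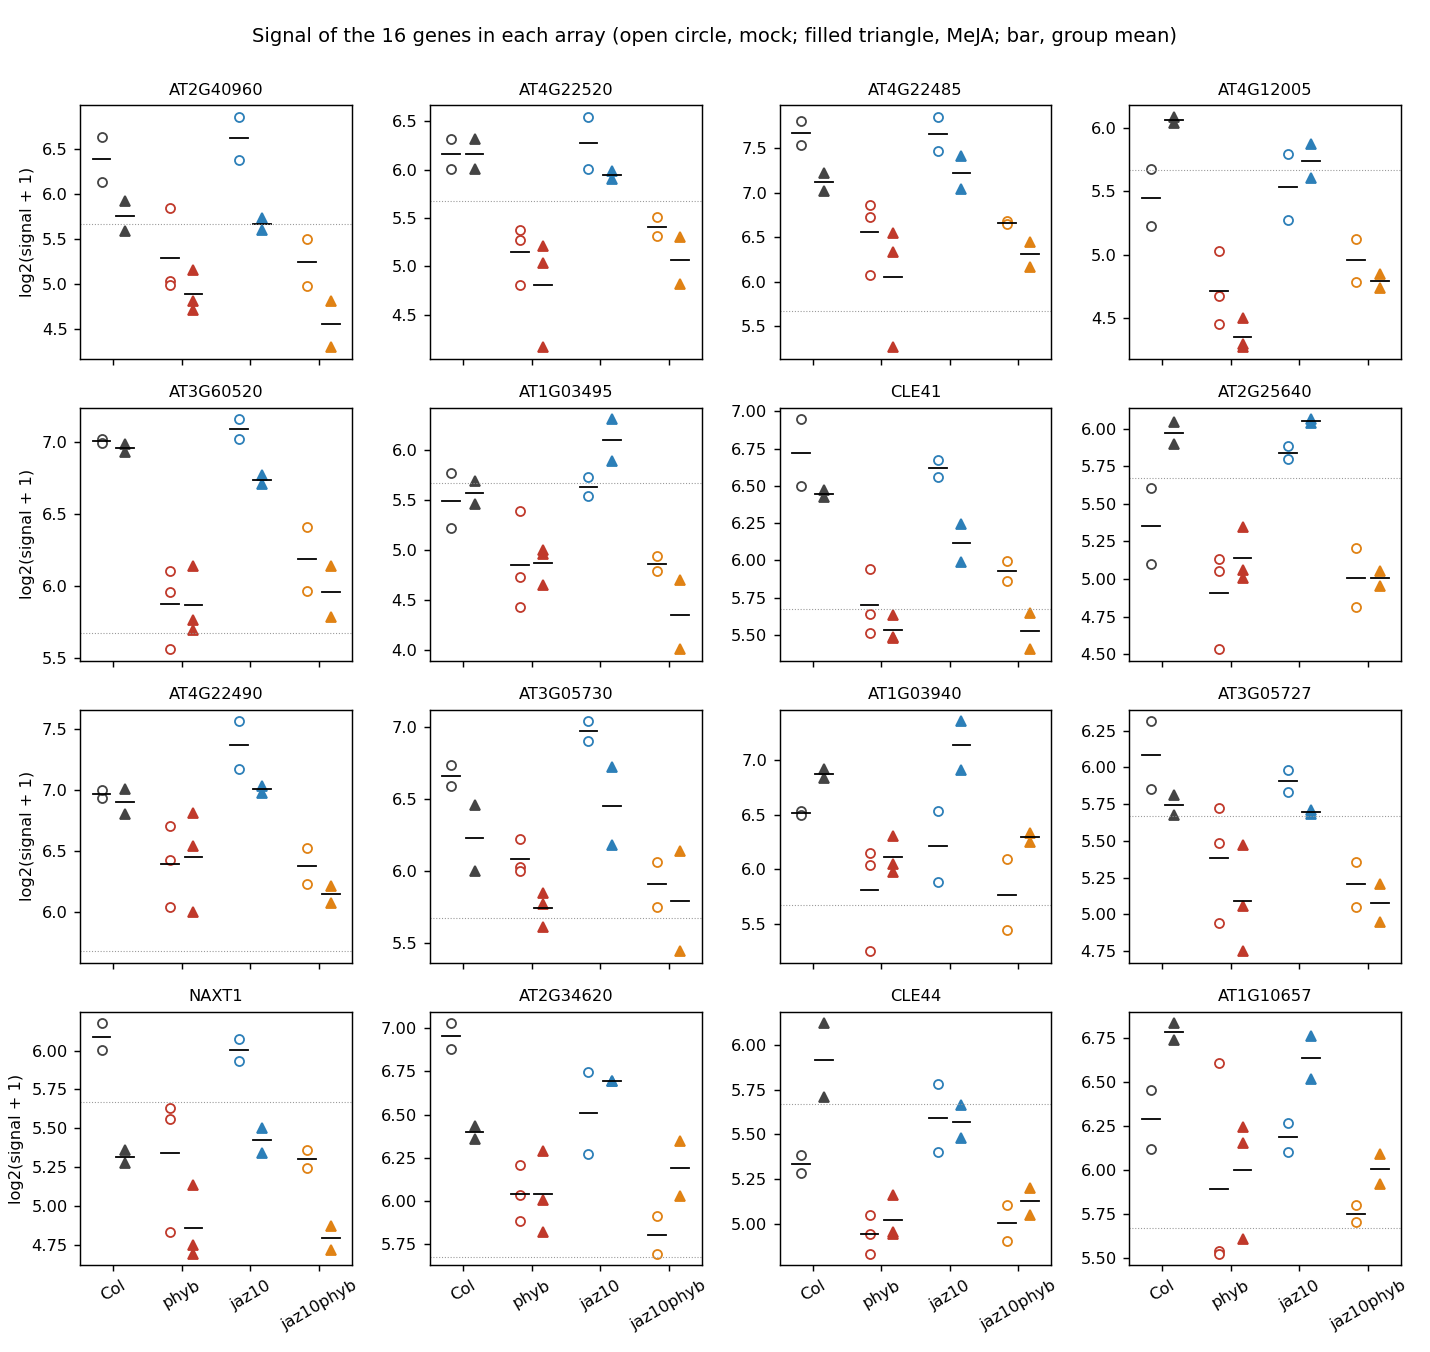
Signal of each of the 16 genes in the 18 arrays, as log2(signal + 1), by genotype. Open circles are mock arrays, filled triangles MeJA arrays, bars group means, and the dotted line the signal minimum of 50. The points with and without PHYB are fully apart in both backgrounds in 5 of the 16 panels, against 0.422% of all genes. The rule chose the genes on these differences, so nothing is read from this share. Among these panels is AT3G60520, where 6 phyb arrays at 46.1 to 69.3 lie under 4 Col arrays at 121.1 to 128.8.

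Over the 16 genes, the difference ranged from -1.22 to -0.52 for phyb minus Col (median -0.68, 37.4% lower) and from -1.26 to -0.52 for jaz10phyb minus jaz10 (median -0.80, 42.7% lower). Without the 2 doubtful arrays phyb minus Col ranged from -1.28 to -0.43 with a median of -0.71, and NAXT1 and AT4G22490 no longer met the limit. Over all 5689 genes the medians were -0.02 and -0.03. The difference was larger in the Col background in 10 genes and in the jaz10 background in 6. In 8 of 16 genes every phyb array lay below every Col array, which held for 1.86% of all genes tested, and in 12 every jaz10phyb array lay below every jaz10 array, against 3.6% of all genes. Both held in 5 of the 16, AT3G60520, AT4G12005, AT4G22485, AT4G22520 and CLE44, against 0.422% of all genes, and neither in NAXT1. Since the rule chose genes on these differences, nothing is read from these shares.

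**Figure D2:**
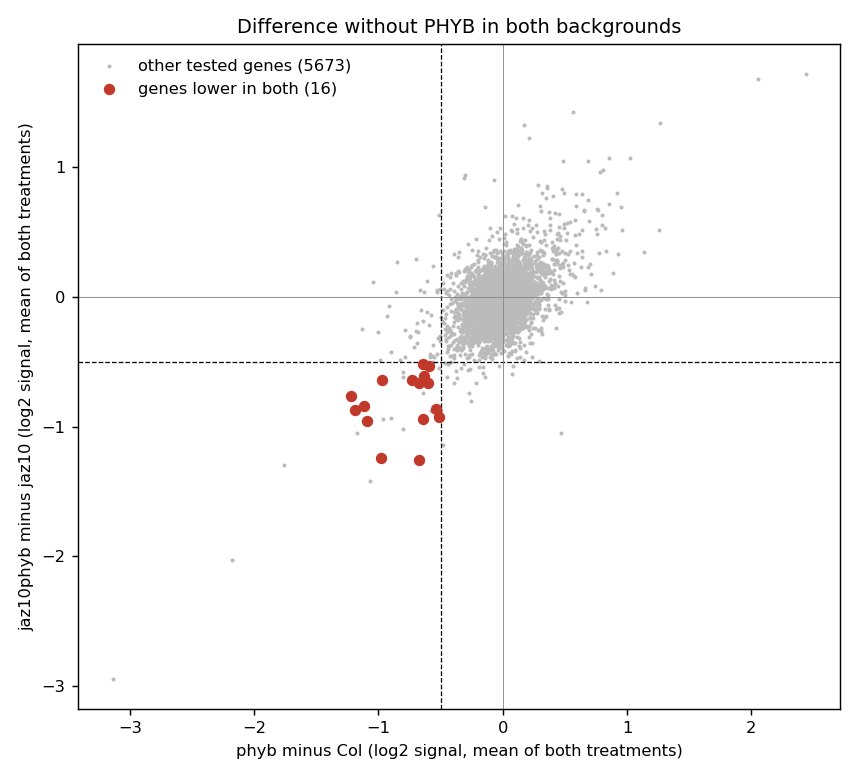
Difference without PHYB for all genes tested, phyb minus Col on the horizontal and jaz10phyb minus jaz10 on the vertical axis, each a log2 difference averaged over both treatments. The 16 genes (red) lie below the dashed limits of -0.5, between -1.22 and -0.52 on the horizontal axis; grey points inside both limits are the genes left out by name or by their Col response.

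The difference without PHYB was present after either treatment. In mock plants it was below zero in all 16 genes in both backgrounds, which the rule favours, with medians of -0.72 for phyb minus Col and -0.74 for jaz10phyb minus jaz10. After MeJA it was also below zero in all 16, which the rule favours as well, with medians of -0.81 in both. For phyb minus Col the medians without the 2 doubtful arrays were -0.88 after mock and -0.69 after MeJA, so the order of the treatments turned. With each treatment taken alone, the arrays without PHYB lay below those with it in 13 genes for mock phyb against Col (16.5% of all genes) and 15 for MeJA (20% of all genes). In the jaz10 background the counts were 15 after mock (22% of all genes) and 16 after MeJA (28.3% of all genes). Nothing is read from these counts either. The change between treatments varied in size from gene to gene, and for phyb minus Col it was not tested. For phyb minus Col, AT4G12005 went from -0.73 after mock to -1.71 after MeJA and CLE44 from -0.39 to -0.90, while AT2G34620 went from -0.91 to -0.36. In the jaz10 background AT1G03495 went from -0.77 to -1.75.

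**Figure D3:**
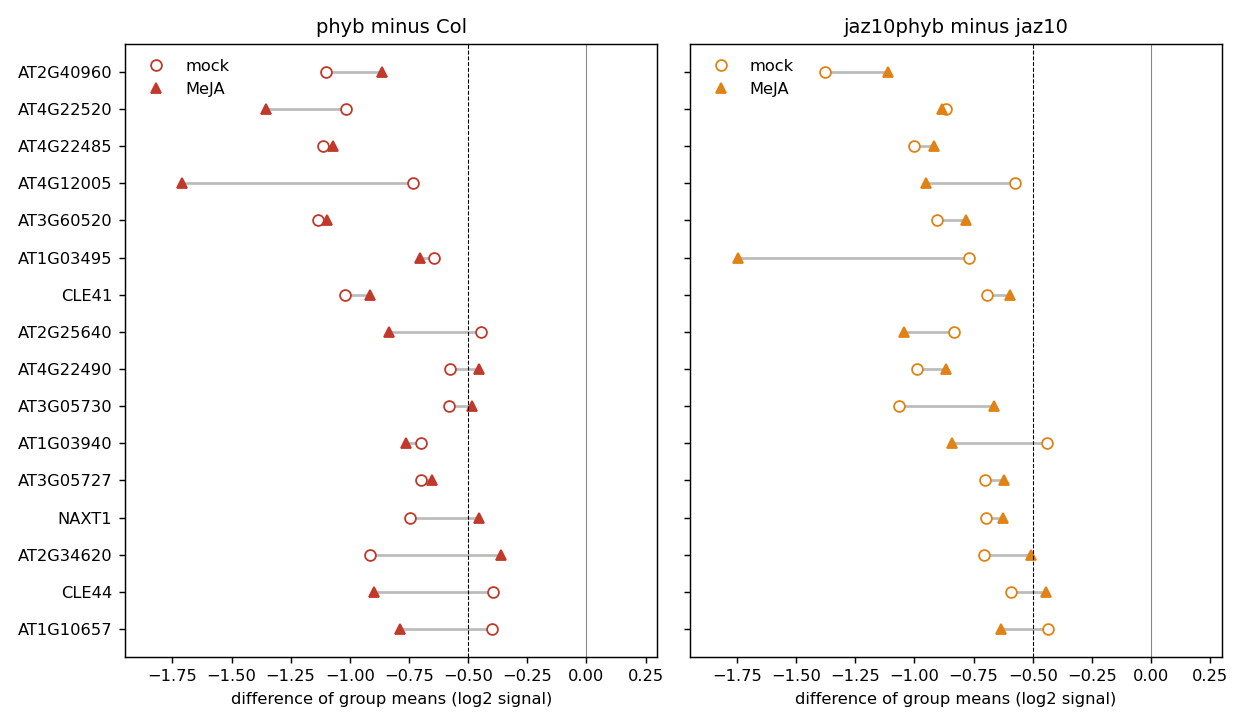
Difference of group means (log2 signal) of the 16 genes, phyb minus Col on the left and jaz10phyb minus jaz10 on the right, for mock plants (open circles) and MeJA plants (triangles). All points lie below zero, the dashed line marks -0.5, and the longest lines are those of AT4G12005 on the left (-0.73 to -1.71) and AT1G03495 on the right (-0.77 to -1.75).

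The change between treatments in the jaz10 background was independent of the rule and was tested, as the MeJA response of jaz10phyb minus that of jaz10. In limma, which shares the estimate of the spread across genes and arrays, with Benjamini-Hochberg adjustment over all 5689 genes, 0 of the 16 passed an adjusted p of 0.05, as did 0% of all genes. At an unadjusted p under 0.05 there was 1 of the 16, against 2.43% of all genes. That gene was AT1G03495, with a difference of responses of -0.98 ± 0.42 (limma unadjusted p = 0.0371, adjusted p = 1). No jaz10phyb array of AT1G03495 reached a signal of 50, so the size of its response there is uncertain. In the other 15 genes the differences of responses lay between -0.40 and 0.40. For CLE41 it was 0.10 ± 0.23, for CLE44 0.14 ± 0.23 and for NAXT1 0.07 ± 0.31. Without the 2 doubtful arrays the counts were again 0, against 0% of all genes, and 1, against 4.8%.

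The responses to MeJA in jaz10, jaz10phyb and phyb were not used by the rule either, while that of Col was limited by it. In jaz10, 0 of 16 genes passed in limma, against 8.74% of all genes, and 5 had an unadjusted p under 0.05, 1 higher and 4 lower, against 29% of all genes. The lowest adjusted p were those of AT1G03940, with 0.92 ± 0.29 (limma adjusted p = 0.0616), and AT2G40960, with -0.95 ± 0.30 (limma adjusted p = 0.0616). CLE41 followed with -0.50 ± 0.17 (limma adjusted p = 0.0695) and NAXT1 with -0.58 ± 0.22 (limma adjusted p = 0.0986). AT1G03940 had signals of 58.2 and 91.6 in mock jaz10 plants and 162.2 and 119.2 after MeJA, so its arrays did not overlap.

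In the fit without the 2 doubtful arrays, which left the fold changes of jaz10 as they were and changed the shared estimate of the spread, 5 of the 16 genes passed in jaz10, against 24.6% of all genes, and 7 had an unadjusted p under 0.05, against 35.2%. AT1G03940 (limma adjusted p = 0.0294) and AT1G10657 (0.45 ± 0.13, limma adjusted p = 0.0206) rose. AT2G40960 (limma adjusted p = 0.0238) and CLE41 (limma adjusted p = 0.0432) fell. The fifth was NAXT1, with -0.58 ± 0.13 (limma adjusted p = 0.00556), but it reached the signal minimum of 50 in 4 arrays, all of them mock Col or mock jaz10. It thus entered the test through the groups where it is high, and its value in jaz10 is given as a description. With 16 genes, a count of 5 is read as no more than the share of all genes. CLE44 had a response of -0.02 ± 0.16 in jaz10, beside the -0.50 ± 0.17 of CLE41, and the difference between the genes was not tested.

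In jaz10phyb, 0 of 16 genes passed with all arrays, against 0.0352% of all genes, and 3 had an unadjusted p under 0.05, all lower, against 23.2% of all genes. Without the 2 doubtful arrays NAXT1, at signals below the minimum in all jaz10phyb arrays, had -0.51 ± 0.13 (limma adjusted p = 0.0157), 1 of 16 against 18.6% of all genes, and 4 had an unadjusted p under 0.05, against 30.7%. CLE41 had -0.40 ± 0.17 (limma adjusted p = 0.116 in that fit) and AT2G40960 -0.68 ± 0.28 (limma adjusted p = 0.111). In phyb as labelled, 0 of 16 passed, as did 0% of all genes, and 1 had an unadjusted p under 0.05, against 3.48% of all genes. This was NAXT1, with -0.48 ± 0.18 and no phyb array at the signal minimum. Without the 2 arrays AT1G10657 rose by 0.67 ± 0.13 (limma adjusted p = 0.00312) and NAXT1 had -0.65 ± 0.13 (limma adjusted p = 0.0041), 2 of 16 against 16.3% of all genes, and 4 had an unadjusted p under 0.05, against 31%. As in jaz10, NAXT1 entered these tests through mock Col and mock jaz10 arrays alone. Its values in jaz10phyb and phyb are therefore a description too, and nothing is read from the counts that include it.

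As a description, NAXT1 had a negative response in each of the 4 genotypes, at -0.77 in Col, near the limit of the rule, -0.58 in jaz10, -0.51 in jaz10phyb and -0.48 in phyb as labelled (-0.65 without the 2 arrays). AT2G40960 was also negative in all 4, at -0.63 in Col, -0.95 in jaz10, -0.68 in jaz10phyb and -0.39 in phyb as labelled (-0.65 without the 2 arrays). AT1G03940 was positive in all 4, at 0.36, 0.92, 0.52 and 0.30 (0.47 without the 2 arrays) in the same order. The median response of the 16 genes was -0.27 in jaz10, -0.20 in jaz10phyb and -0.09 in phyb as labelled (0.07 without the 2 arrays), beside medians over all genes of -0.05, -0.08 and -0.03 (-0.05 without the 2 arrays).

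**Figure D4:**
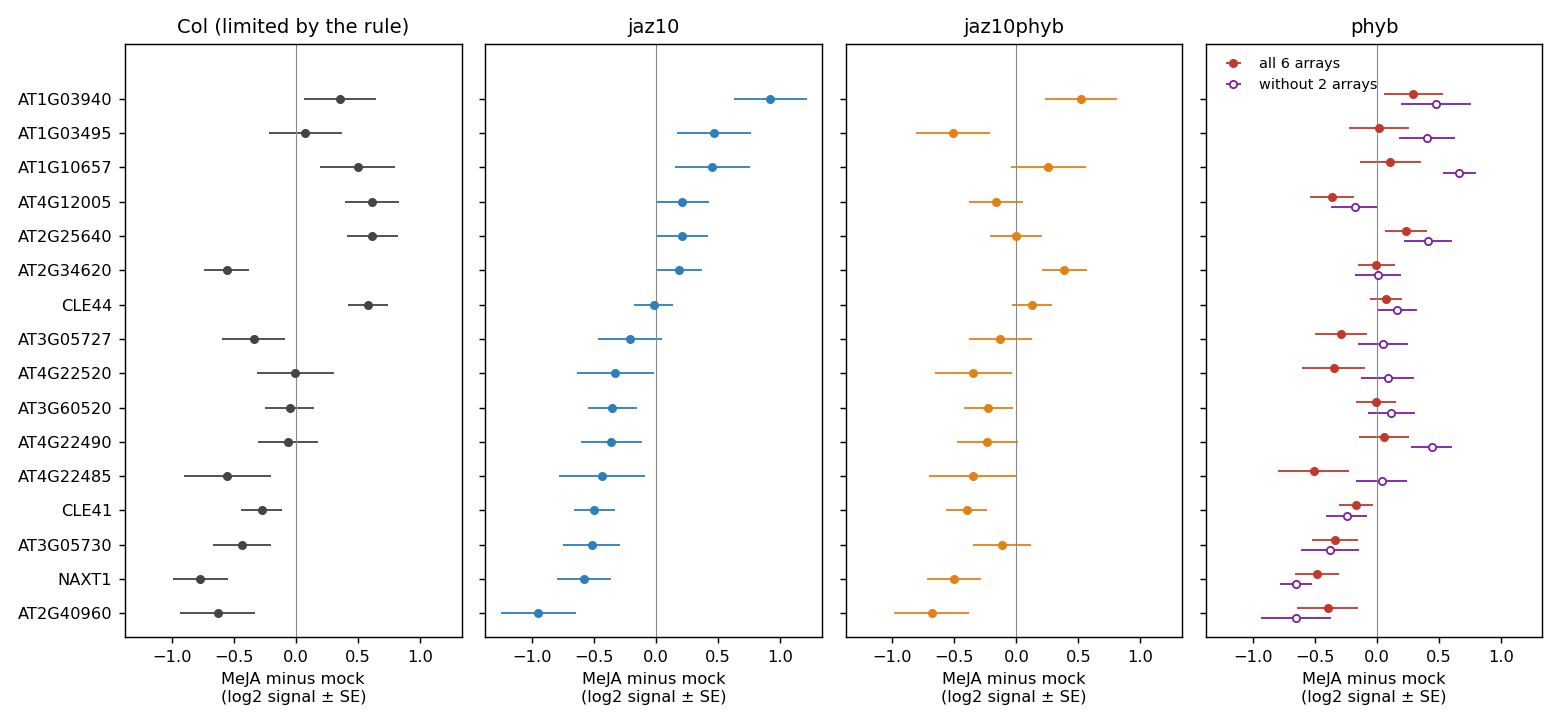
MeJA minus mock difference (log2 signal, points with SE bars) of the 16 genes in each genotype, sorted by the value in jaz10. The Col panel is limited by the rule, and the phyb panel shows the fit with all 6 arrays (filled) and without the 2 doubtful ones (open); AT1G03940 lies right of zero and NAXT1 and AT2G40960 left of zero in all 4 panels.

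Between genotypes that differ in JAZ10, the 16 genes had differences near zero. The jaz10 minus Col difference, averaged over treatments, ranged from -0.22 in CLE41 to 0.33 in AT1G03495 with a median of -0.03, and jaz10phyb minus phyb from -0.25 in AT1G03495 to 0.34 in AT4G12005 with a median of -0.03. Over all genes these medians were -0.02 and -0.03. These contrasts share arrays with the rule and were not tested. The lowest genotype mean was that of phyb in 7 genes and of jaz10phyb in 9, and the highest was that of Col in 9 and of jaz10 in 7, an order that the rule fixes in part.

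The members nearest the limit were AT3G05730 (-0.53 as the larger of both differences), CLE44 (-0.52) and AT4G22490 (-0.52). Just outside lay ALN, the allantoinase of purine breakdown (-0.56 for phyb minus Col and -0.50 for jaz10phyb minus jaz10, marginally above the limit), PIF7, one of the PIF factors that act in shade (-0.49 and -0.87), and AT1G22690 (-0.99 and -0.48). Of the 16 genes, 6 had no phyb or jaz10phyb array at a signal of 50 and so passed the signal minimum through Col and jaz10 arrays alone. These were AT1G03495, AT2G25640, AT4G12005, AT4G22520, CLE44 and NAXT1. Among all 16, 10 reached the minimum in all 8 Col and jaz10 arrays, and 2 in all 18 arrays.

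Other light, growth and metabolism genes were looked up in 16 lists. Of their 773 gene names, 103 were matched to a named probe set and 75 of these were tested. Of the 75, 73 were not among the 16 genes, so each list is described by few genes. The matching missed some tested genes, such as 5MAT, which the annotation holds as AT5MAT. Members without a symbol may belong to a list too, so statements on the lists cover matched genes alone. In limma 9 of the 73 differed without PHYB in at least 1 background. For phyb minus Col 3 were lower, against 0.809% of all genes, and 4 higher, against 0.439%. For jaz10phyb minus jaz10 4 were lower, against 0.598%, and 4 higher, against 0.439%. Without the 2 doubtful arrays 17 of the list genes passed in at least 1 background, where 2.09% of all genes were lower and 1.86% higher for phyb minus Col, and 2% lower and 1.58% higher for jaz10phyb minus jaz10. The lists were chosen with earlier results of these data known, so nothing is read from these counts beside the shares.

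CLE41 and CLE44 belong to the list of stomatal, vascular and meristem signals, whose 5 other tested genes did not pass in either background. Among them SPCH, which starts the stomatal lineage, had -0.43 ± 0.14 for phyb minus Col and -0.24 ± 0.15 for jaz10phyb minus jaz10 (limma adjusted p = 0.181 and 0.619). FAMA, which completes guard cell formation, had -0.30 ± 0.08 and -0.22 ± 0.09 (limma adjusted p = 0.11 and 0.371). Among the light-signalling genes PIF7 was the single one tested, lower in the jaz10 background (limma adjusted p = 0.0131) and not past the threshold for phyb minus Col with all arrays (limma adjusted p = 0.0962), though past it without the 2 doubtful ones (limma adjusted p = 0.0206). The shade-induced transcription factor HAT2 was higher in both, by 0.59 ± 0.12 and 0.79 ± 0.14 (limma adjusted p = 0.0324 and 0.0143). The defensins PDF1.2a (2.05 and 1.68) and PDF1.2b (2.44 and 1.72) and the thionin THI2.2 (0.54 and 0.58) were also higher in both. In the shade list of HAT2, IAA29 had larger differences of 1.26 ± 0.35 and 1.34 ± 0.39 but did not pass (limma adjusted p = 0.119 and 0.132). Without the 2 doubtful arrays IAA29 passed in both (limma adjusted p = 0.00413 and 0.00977). Of the other tested genes of that list, EXPA8 was higher (0.50 and 0.34) and BIM1 lower (-0.03 and -0.21), neither passing.

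Lower in both were DFR, an anthocyanin enzyme that the rule leaves out by name (-1.76 and -1.29), and NDC1, a plastid quinone dehydrogenase (-0.59 and -0.46). CHIL, a chalcone isomerase-like protein of flavonoid synthesis, was lower for phyb minus Col (-0.75, limma adjusted p = 0.0278) and LHCB4.1, a light-harvesting protein, for jaz10phyb minus jaz10 (-0.34, limma adjusted p = 0.0418). The difference between backgrounds was not tested for these genes. In the fit without the 2 doubtful arrays, the adjusted p for phyb minus Col was 0.0939 for SPCH, 0.064 for FAMA, 0.0054 for HAT2 and 0.00948 for CHIL, and that for jaz10phyb minus jaz10 was 0.0171 for LHCB4.1 (limma), so these stayed on the same side of the threshold. Other list genes passed in that fit alone. Among them were UGT79B1 in both backgrounds (limma adjusted p = 0.0347 and 0.0179) and EIN3 for phyb minus Col (limma adjusted p = 0.0446). The list of mineral nutrition, the one nearest to NAXT1 in function, had no tested gene.

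By likeness of pattern, measured as Pearson correlation with the mean of the 16 genes over the 8 group means, the closest other genes were AT4G13575 (0.979), UPP (0.976) and AT3G55920 (0.973). AT4G13575 and AT3G55920 are among the genes the rule leaves out by name. UPP, a uracil phosphoribosyltransferase of pyrimidine salvage, had differences of -0.40 and -0.35, smaller than the limit. The 8 group means share arrays with the choice of the 16 genes, so these values are a description. By position, 3 of the 16 genes lie on chromosome 1, 3 on chromosome 2, 5 on chromosome 3 and 5 on chromosome 4, while chromosome 5 holds 0 of the 16 and 23.4% of all genes tested. Genes left out by name, such as DFR (AT5G42800) on chromosome 5, are missing from these counts, so nothing is read from them.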

How the data were processed

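RNA from 18 plant pools was measured on Affymetrix Arabidopsis Gene ST arrays. Per the submitters' processing notes, the authors used Affymetrix Expression Console, and the deposited values are signal intensity, linear as read from their range. How probes were summarised, the version and the build are not stated there. Array medians lay between 14.87 and 17.5. Of 38408 probe sets a platform table paired 16722 with 1 gene, 759 with several and 20927 with none. The TAIR10.1 gene table matched 16574 and served for names and gene order.

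Signals were taken as log2(value + 1), with a minimum of 50 in any array. limma 3.58.1 in R 4.3.3 fitted 8 group means to 18 arrays (10 residual degrees of freedom), with Benjamini-Hochberg adjustment over 5689 genes and an adjusted p threshold of 0.05. Its fit was checked on simulated data. The number of arrays limits the precision.

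Members and gene lists were chosen with earlier results of these data known. Genes named were the members with a symbol, the 8 without one that had the lowest mean of both differences, 3 on each side of the threshold, members passing a test, the 3 closest patterns and up to 3 genes per list. Other members were named after their values were seen. Alternatives were another pseudocount, signal minimum, normalization, probe set rule, threshold and eBayes setting, a replicate block, and arrays left out, including phyb Control 2 and phyb MeJA 3 together. Deviations of same-numbered samples had correlations of -0.721 to 0.602 in phyb, which holds the 2 doubtful arrays. In the other genotypes the correlations lay between -0.0195 and 0.0998. The numbers were therefore not taken to pair the samples.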

Additional observations from a re-analysis of the deposited data

Results flagged for a closer look

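In AT1G03495 both jaz10 arrays after MeJA lay above both mock arrays, while both jaz10phyb arrays after MeJA lay below both mock arrays. The MeJA response was 0.47 in jaz10 and -0.51 in jaz10phyb, and the test of the difference gave -0.98 ± 0.42 (limma adjusted p = 1, unadjusted p = 0.0371). Without the 2 doubtful phyb arrays the adjusted p was 0.989. None of the jaz10phyb arrays reached the signal minimum of 50, so the gene was tested through its Col and jaz10 arrays, and the size of the jaz10phyb response is uncertain.

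In AT2G34620 both MeJA arrays lay below both mock arrays in Col, and above both mock arrays in jaz10phyb. The response was -0.56 in Col and 0.39 in jaz10phyb. This difference was not tested, and the Col response was limited by the rule that chose the genes.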

How the results depend on the processing

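For MeJA in jaz10, 0 of the 16 genes were called with the settings used, against 8.74% of all genes. There were 2 with log2(value + 16) and 2 with the replicate block in the limma fit. Without phyb Control 2 and phyb MeJA 3 there were 5, against 24.6% of all genes. Without those 2 arrays the count was 1 in jaz10phyb (18.6% of all genes) and 2 in phyb (16.3% of all genes). NAXT1, whose values are given as a description, is in both counts and among the 5 of jaz10. In that fit 17 list genes passed in place of 9. With 1 array left out in turn the counts ranged from 0 to 3 in jaz10, with 2 without phyb Control 1, 3 without phyb Control 2 and 2 without phyb MeJA 3. They ranged from 0 to 1 in jaz10phyb, with 1 without phyb Control 2, and from 6 to 12 for list genes, and stayed at 0 for phyb and for the difference of responses. The replicate block changed no other count of calls by over 1.5 times. Shares of all genes are not given for the larger pseudocount, the block or the fits with 1 array left out. Nothing is therefore read from those counts about the 16 genes.

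The rule took 9 genes with log2(value + 16), 8 of them among the 16, 9 with a signal minimum of 100, and 32 with a threshold of -0.4. With 1 array left out it took 13 to 20 genes, 12 to 16 of them among the 16, and 6 genes were taken in all 18 such fits. The cause of these changes was not tested. No genotype difference of the 16 genes turned its sign under any alternative, and 12 moved by more than the spread between replicates, against 774 that did not. The larger pseudocount accounted for most of these and by construction shrinks differences of dim probe sets. Members close to a signal of 50 are therefore the least certain in size, and signal over background was not tested.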

Other observations

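Among probe sets that the platform table does not pair with a single named gene, which include those paired with several, 45 that reached the signal minimum met the same limits, 0.517% of those passing it. The 16 genes were 0.281% of all genes tested, after 7 others were left out by name and with 1 probe set kept per gene. The share of the 45 counts probe sets, so the shares are not alike and nothing is read from them. These 45 probe sets cannot be named here.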
